A study of Mus musculus with 221 samples.

Results

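The mitochondrial genome of the mouse encodes 22 tRNA genes, and 8 of them lie on the minus strand: mt-Tq, mt-Ta, mt-Tn, mt-Tc, mt-Ty, mt-Ts1, mt-Te and mt-Tp. These 8 light-strand tRNA genes were taken by the strand given in the count table, which lists 55291 genes, 37 of them mitochondrial. They were followed in single early 2-cell embryos, sired by males on a high-fat diet (HFD, 38 embryos numbered 31 to 70 in their titles and 84 with other numbers) or on a low-fat diet (LFD, 99 embryos). Per the study's methods, C57BL/6N males began the diet at 6 weeks of age and sperm was collected at 8 weeks, after 2 weeks of feeding. Frozen and thawed sperm of 4 males per diet was used in vitro with oocytes of C57BL/6N-mtST females aged 3 to 16 weeks, which carry C57BL/6N nuclear DNA with the mitochondrial DNA of the Staudach line. Every embryo in both groups therefore had Staudach mitochondria from the oocyte, and by design the groups differed in the diet and in the males. The labels do not give the sex of an embryo. The labels name neither the sire nor the fertilization date of an embryo, so differences between the diets and between the 4 males behind each cannot be told apart. P-values measure the spread between embryos only.

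Mitochondrial DNA is transcribed from both strands into long precursor RNAs, in which tRNAs lie between the coding regions. Enzymes cut the precursors at the ends of the tRNAs, and this releases the tRNAs, mRNAs and rRNAs. The strand that carries the 8 tRNA genes encodes a single protein, mt-Nd6, a subunit of respiratory complex I. The members carry glutamine (mt-Tq), alanine (mt-Ta), asparagine (mt-Tn), cysteine (mt-Tc), tyrosine (mt-Ty), serine (mt-Ts1), glutamic acid (mt-Te) and proline (mt-Tp) to the mitochondrial ribosome.

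The genes differ in where they stand. mt-Ta, mt-Tn, mt-Tc and mt-Ty form a cluster between mt-Tw and mt-Co1, and mt-Te touches mt-Nd6. These 5 members lie within 2 bases of another minus-strand gene. The other 3 have no minus-strand gene within 1000 bases: 1175 bases separate mt-Tq from the nearest, 1216 separate mt-Tp and 1543 separate mt-Ts1. All 14 heavy-strand tRNA genes lie within 2 bases of another gene of their own strand. The 5 sequences shown here are those of the 3 members that stand alone, which were also the 3 most abundant, and of mt-Ta and mt-Te for comparison. They are GENCODE transcripts (release vM21, GRCm38), written 5′ to 3′ on the minus strand, with the anticodon found from its stem and loop in capitals. The embryos carried Staudach mitochondrial DNA, so their own letters can differ from these.
mt-Ts1: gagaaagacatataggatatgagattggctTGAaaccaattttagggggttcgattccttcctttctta
mt-Tq: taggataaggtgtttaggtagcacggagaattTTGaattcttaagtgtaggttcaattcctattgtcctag
mt-Tp: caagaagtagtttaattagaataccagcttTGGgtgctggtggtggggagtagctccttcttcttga
mt-Ta: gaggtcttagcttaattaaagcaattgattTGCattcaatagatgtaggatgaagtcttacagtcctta
mt-Te: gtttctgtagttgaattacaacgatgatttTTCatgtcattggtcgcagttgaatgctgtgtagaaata

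In the count table mt-Ts1 spans MT:6870-6938, mt-Tq MT:3772-3842, mt-Tp MT:15356-15422, mt-Ta MT:5018-5086 and mt-Te MT:14071-14139 (GRCm38). In all 8 members the anticodon found in this way reads a codon of the amino acid in the gene's name. Between 33.3% and 44.8% of the bases are G or C, with mt-Ta lowest and mt-Tp highest. Of the stretches of 31 bases in each member, 10.8% of those of mt-Ty also occur in a transcript of the nuclear gene Cep295, so its count is uncertain. The other 7 members share none with a nuclear transcript.

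Total counts per embryo ran from 1937251 to 17246791, and between 11364 and 21638 genes had a count, with fewer than 15000 in 8 embryos. All 6 markers of the 2-cell stage, among them Zscan4c and Zfp352, and all 8 oocyte markers were detected and tested, and 0 of either list differed between the diets by edgeR (2 and 2 of them had an unadjusted p under 0.05). Of 12 macrophage markers 7 were tested and 5 were higher in HFD embryos. The median summed level of this list, in log2 CPM, was 6.26 for HFD against 6.27 for LFD embryos, but its highest value was 12.6 for HFD against 7.29 for LFD. Of 9 cumulus and granulosa markers 2 were tested and 0 were called, while 0 of 7 spermatid markers passed the filter on low counts.

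The members spanned a wide range of levels, given here as counts in each 1000000 of the embryo's total (CPM) per kilobase of gene, as the median over all embryos. Reads of 150 bases are longer than a tRNA gene, so values per kb are not like for like between tRNA and mRNA genes. mt-Ts1 stood at 5087 CPM per kb, close to the 5091 of mt-Co1, the abundant mRNA beside it that encodes a catalytic subunit of complex IV. mt-Tq followed at 541 and mt-Tp at 280. The order mt-Ts1, mt-Tq, mt-Tp and then the other 5 held in 215 embryos, all but 6, and mt-Ts1 was first in every embryo. Of the members beside another minus-strand gene, mt-Ta stood at 74.1, mt-Te at 39.5 and mt-Ty at 19.2. mt-Ta was above mt-Te in 190 embryos and mt-Te above mt-Ty in 187, so these neighbours in the order overlapped. mt-Tn and mt-Tc had a median of 0, with 15 and 67 counts over all embryos. For comparison, mt-Nd6 on the same strand stood at 241 CPM per kb, and the highest heavy-strand tRNA gene, mt-Tt, at 146.

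**Figure D1:**
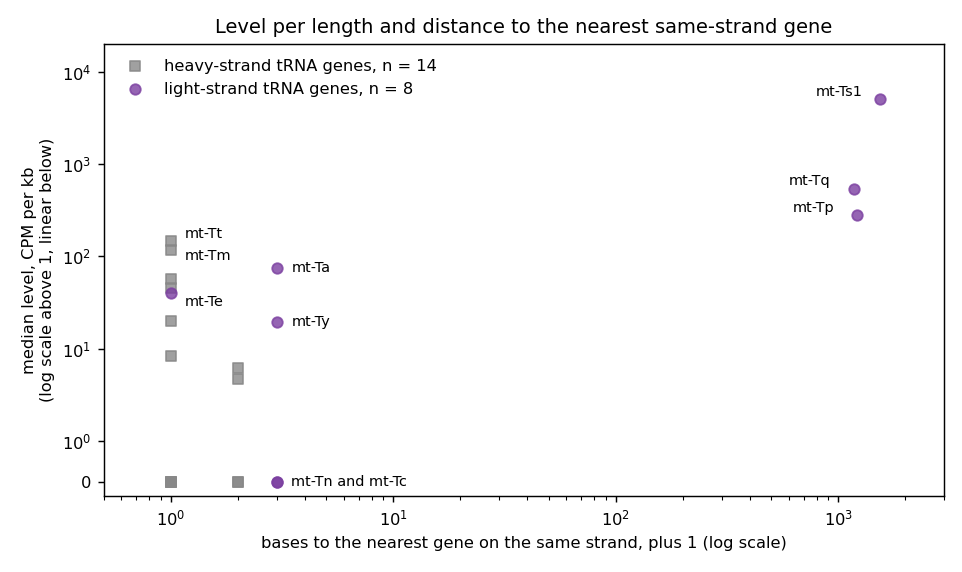
Median level of each mitochondrial tRNA gene over all embryos in CPM per kb (vertical, log scale above 1 and linear below), by the bases to the nearest gene on the same strand plus 1 (horizontal, log scale, overlaps drawn as no gap). Circles are the 8 light-strand and squares the 14 heavy-strand genes; mt-Ts1, mt-Tq and mt-Tp stand alone at the right, above every gene at the left.

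Light-strand genes held 93.3% of all mitochondrial tRNA counts. Within them mt-Ts1 took 81.8%, mt-Tq 11.2%, mt-Tp 4.85%, mt-Ta 1.204%, mt-Te 0.674%, mt-Ty 0.308%, mt-Tc 0.0114% and mt-Tn 0.00255%. Any summed tRNA level is thus mostly the level of mt-Ts1.

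How the counts were made bears on these levels. Smart-seq2 copies polyadenylated RNA and does not mark the strand, while the counting kept reads of 1 orientation. Reads of a light-strand tRNA and reads of heavy-strand RNA across the same bases therefore cannot be told apart, and the values are counts at the position of the gene. The counter's default also left out reads that touch 2 genes of the same strand. Both reads of a pair could be counted. Even numbers made up 49.8% of the nonzero counts of mt-Tq, 49.3% of those of mt-Tp and 55.7% of those of mt-Ts1, but 100% of those of the heavy-strand tRNA genes mt-Tv, mt-Tl1 and mt-Tg, which lie between other genes of their strand.

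The first question was whether the members differ between embryos of the diets. With edgeR over all 14820 genes that passed the filter, mt-Tq, mt-Tp and mt-Ts1 rose in HFD embryos, and mt-Ta and mt-Te did not pass a false discovery rate (FDR) of 0.05. That is 3 of the 5 members tested, where 2.15% of all tested genes were called and 1.26% were called higher in HFD. mt-Tn, mt-Tc and mt-Ty did not pass the filter on low counts. The median log2 fold change was 0.32 over the 5 tested members and 0.01 over all tested genes. The rise was not particular to the members. In the same fit 3 of 5 tested heavy-strand tRNA genes were called higher, with a median of 0.48. Of the 13 mitochondrial mRNA genes 10 were called higher, with a median of 0.37. The rRNA genes mt-Rnr1 (0.73, FDR 7e-06) and mt-Rnr2 (0.51, FDR 7.06e-05) were called higher too. Mitochondrial genes took up 5.61% of the total in the median HFD embryo and 4.38% in the median LFD embryo.

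mt-Tq, the glutamine tRNA, moved most. Its level was 12.9 CPM in the lowest, 44.2 in the median and 256 in the highest HFD embryo. The corresponding LFD values were 10.4, 33.2 and 86.5 CPM. The diets overlapped at the low end, but 34 HFD embryos exceeded the LFD maximum. For mt-Tm, the heavy-strand tRNA gene beside it, 27 did so. At least 20 HFD embryos, a number set after the values were seen, exceeded the LFD maximum for 0.0135% of the genes tested, which are mt-Tq and mt-Tm. The next gene had 19 such embryos, so this share depends on where the number was set. The log2 fold change, HFD over LFD, was 0.87 (SE 0.11, edgeR FDR 2.64e-09). As log2(CPM + 0.5), the mean and SD were 5.73 ± 0.97 for HFD against 5.13 ± 0.57 for LFD embryos.

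mt-Tp, the proline tRNA, ran from 5.16 CPM through a median of 20.7 to 87.6 in HFD embryos. In LFD embryos it ran from 4.603 through 17.2 to 86.7 CPM. The ranges were nearly the same, 1 HFD embryo exceeded the LFD maximum, and 79 lay above the LFD median. The embryo above the maximum had 11415 genes with a count, the fewest of any HFD embryo. The LFD embryo with the most mt-Tp had the lowest total count of all, 1937251; without it the next was at 48.5 CPM, and 14 HFD embryos lay above that. The log2 fold change was 0.50 (SE 0.10, edgeR FDR 0.000924). With ranges of 10 embryo numbers within a diet as a random effect in limma-voom, an alternative added after the data were seen, it was 0.39 and the call was lost (FDR 0.0762).

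mt-Ts1, the serine tRNA that reads UCN codons, ran from 127.6 CPM through 399 to 1052 in HFD embryos. In LFD embryos it ran from 122.02 CPM through 329 to 1611. No HFD embryo reached the highest LFD embryo, which had 14707 genes with a count and also held the highest LFD level of mt-Ta and mt-Te. In 80 HFD embryos mt-Ts1 lay above the LFD median. The log2 fold change was 0.30 (SE 0.08, edgeR FDR 0.0256). With the macrophage marker level as a covariate it was 0.25 and no longer passed the threshold (FDR 0.0871), in a fit that called 1.01% of genes higher. With the Y-linked level as a covariate it was 0.28 and only just passed (FDR 0.0497), in a fit that called 1.13% of genes higher. mt-Tq and mt-Tp were also called in that fit.

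mt-Ta, the alanine tRNA, had a median of 5.42 CPM in HFD (1.33 to 26.6) and 4.93 in LFD embryos (0.635 to 25.8). Its log2 fold change was 0.10 (SE 0.10, edgeR FDR 0.748). mt-Te, the glutamic acid tRNA, had a median of 2.94 CPM in HFD (0.141 to 13.7) and 2.62 in LFD embryos (0.374 to 21.4). Its log2 fold change of 0.32 was larger than that of mt-Ts1, with a larger error (SE 0.14, edgeR FDR 0.242). For both genes the diets overlapped over nearly their whole range.

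**Figure D2:**
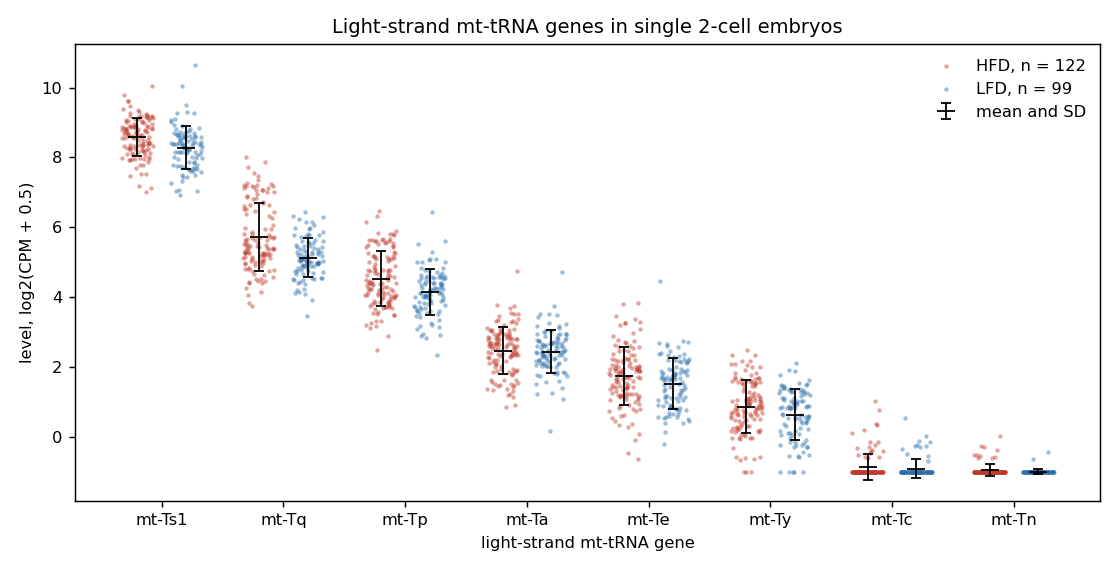
Level of each light-strand tRNA gene in every embryo, as log2(CPM + 0.5), for HFD (red) and LFD (blue, n = 99), with the mean and SD in black. The diets overlap in all 8 genes, and a group of HFD embryos extends above the LFD embryos in mt-Tq.

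The 3 members below the filter were compared by whether an embryo had a count. mt-Tn, the asparagine tRNA, had a count in 10 HFD embryos (8.197%) and 2 of 99 LFD embryos (2.02%; 2-sided Fisher's exact test p = 0.07). mt-Tc, the cysteine tRNA, had a count in 19 HFD (15.6%) and 12 LFD embryos (12.1%; exact p = 0.56). mt-Ty, the tyrosine tRNA, had a count in 97.5% of HFD and 94.9% of LFD embryos (exact p = 0.472), with medians of 1.34 and 1.27 CPM. By this measure no difference passed 0.05 at this depth, where mt-Tn never passed 2 counts and mt-Tc never passed 6. The call for mt-Tn depended on the setting. When all embryos were thinned to the lowest total, it had a count in 8 HFD and 1 LFD embryo (exact p = 0.0443). Without the filter on low counts, edgeR gave mt-Tn 0.76 on the log2 scale (FDR 0.0497), in a fit that called 10.9% of genes higher. That fit did not call mt-Tc (FDR 0.340) or mt-Ty (FDR 0.130).

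The heavy-strand genes beside the members were read from the same fit. Around mt-Tq, mt-Tm, the methionine tRNA, rose by 1.02 on the log2 scale (SE 0.12, edgeR FDR 1.05e-10), and mt-Ti, the isoleucine tRNA, by 0.55 (SE 0.14, FDR 0.015). Beside mt-Tp, the threonine tRNA mt-Tt rose by 0.48 (SE 0.11, FDR 0.00514). Beside mt-Ts1, mt-Co1 rose by 0.31 (SE 0.08, FDR 0.00834), and mt-Td, the aspartic acid tRNA on the other side, did not pass the filter. The tryptophan tRNA mt-Tw beside mt-Ta had 0.25 (SE 0.11, FDR 0.261). Of the genes on either side of mt-Te, mt-Cytb, the cytochrome b mRNA, rose by 0.53 (SE 0.09, FDR 1.6e-05) and mt-Nd6 had 0.34 (SE 0.11, FDR 0.0612).

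To ask whether a member differs by another amount than its neighbour, the log2 ratio to the nearest heavy-strand gene was compared in each embryo. There were 5 such ratios, 1 for each tested member, and their permutation p-values are not adjusted. Reads of the strands cannot be told apart, so a ratio can set reads of 1 RNA against each other. An unchanged ratio then does not show that separate RNAs changed alike. mt-Tq over mt-Ti averaged 3.67 ± 0.72 for HFD against 3.44 ± 0.63 for LFD embryos and so differed by 0.23 (permutation p = 0.0138, 2-sided). The direction turned with the neighbour: against mt-Tm, 2 bases away on the other side and added after the data were seen, the ratio averaged 2.24 ± 0.50 for HFD and 2.46 ± 0.46 for LFD embryos, a difference of -0.22 (p = 0.00114). mt-Ta over mt-Tw averaged 0.24 ± 0.54 for HFD against 0.44 ± 0.50 for LFD embryos and so differed by -0.20 (p = 0.00525). mt-Ta was thus lower in HFD embryos against the gene beside it, although its own level had not differed past the threshold.

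For the other 3 members no difference of the ratio passed 0.05. mt-Ts1 over mt-Co1 averaged -4.43 ± 0.21 for HFD against -4.44 ± 0.19 for LFD embryos and so differed by 0.01 (p = 0.778). For mt-Tp over mt-Tt the difference was 0.04 (p = 0.367) and for mt-Te over mt-Cytb -0.15 (p = 0.122). With 1 CPM added in place of 0.5, the mt-Te difference was -0.18 and passed (p = 0.0456). The SD of the mt-Ts1 ratio was the smallest of the 5, but mt-Ts1 overlaps mt-Co1. Its reads cannot be separated from those of heavy-strand RNA there.

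Counted against the summed 13 mitochondrial mRNA genes in place of all genes, the members went different ways. mt-Tq was then higher in HFD embryos by 0.40 (edgeR FDR 0.00037), and mt-Ta was lower (log2 fold change -0.31, FDR 0.00107). mt-Tp stood at 0.08 (FDR 0.388), mt-Ts1 at -0.04 (FDR 0.463) and mt-Te at -0.13 (FDR 0.337). On this scale the median of all genes moved to -0.38, and 0.216% of genes were called higher and 65.1% lower. A call of lower was thus the usual outcome, and mt-Ta lay above the median of all genes.

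**Figure D3:**
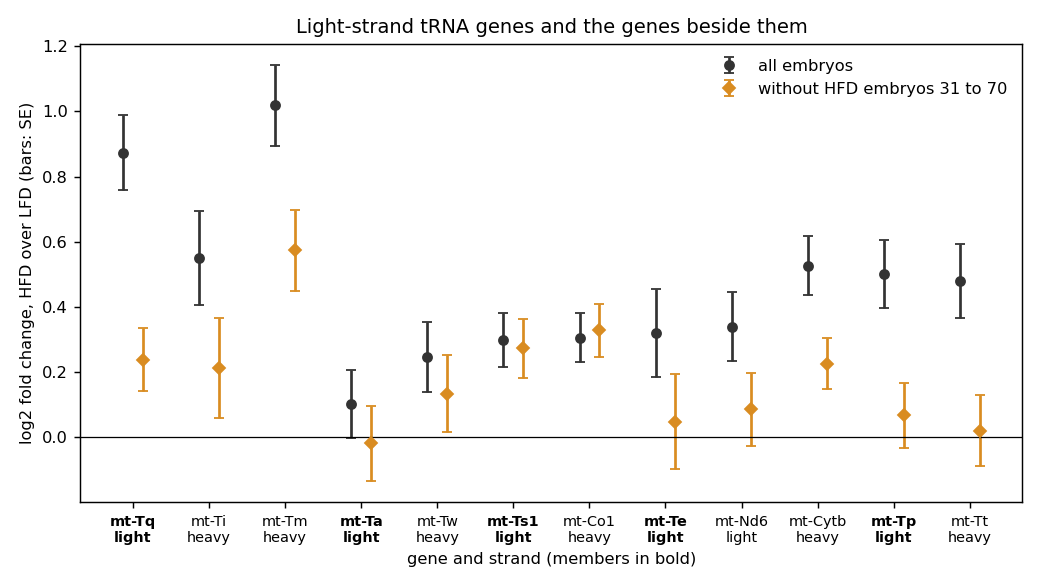
Log2 fold change of HFD over LFD with its SE for the 5 tested members (bold) and the genes beside them, over all embryos (black circles) and without HFD embryos 31 to 70 (orange diamonds). mt-Tq, mt-Tp, mt-Te and the genes beside them lie nearer to 0 without those embryos, whereas mt-Ts1 and mt-Co1 stay between 0.27 and 0.33.

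The members also differed in how their level ran along the embryo numbers in the sample titles. The numbers need not mark a date or sire. The run from 31 to 70 was taken up because earlier results of these data had pointed to it, so its own difference is described without a test. In means over ranges of 10 numbers, mt-Tq stood between 6.65 and 7.19 log2(CPM + 0.5) in the 4 HFD ranges from 31 to 70. In the other HFD ranges it stood between 4.86 and 5.85, and in the LFD ranges between 4.64 and 5.82. Of the 34 HFD embryos past the LFD maximum, 30 were numbered 31 to 70.

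mt-Tp had the same shape at a lower level. It stood between 5.16 and 5.47 in the HFD ranges from 31 to 70, between 3.87 and 4.57 in the other HFD ranges, and between 3.72 and 4.36 in the LFD ranges. mt-Te stood between 1.95 and 2.69 in those 4 ranges and between 1.22 and 1.83 in the other HFD ranges. The LFD ranges of mt-Te ran from 1.21 to 2.03, so the lowest of the 4 lay below the highest LFD range. For these 3 members each of the 4 ranges lay above every other HFD range. The same held for the heavy-strand genes mt-Tm and mt-Tt and for mt-Nd6, so it is not particular to these members. For mt-Co1 1 of the 4 ranges did so.

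mt-Ts1 did not separate in this way. Its HFD ranges from 31 to 70 stood between 8.47 and 9.02 and the others between 8.27 and 8.87, with 1 of the 4 above all others, and its LFD ranges between 8.04 and 8.93. mt-Ta was alike, at 2.53 to 3.04 against 1.99 to 2.88, with LFD ranges from 2.16 to 3.09. Among the low members, mt-Ty had a median of 2.29 CPM in HFD embryos 31 to 70 and 1.11 in the other HFD embryos.

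**Figure D4:**
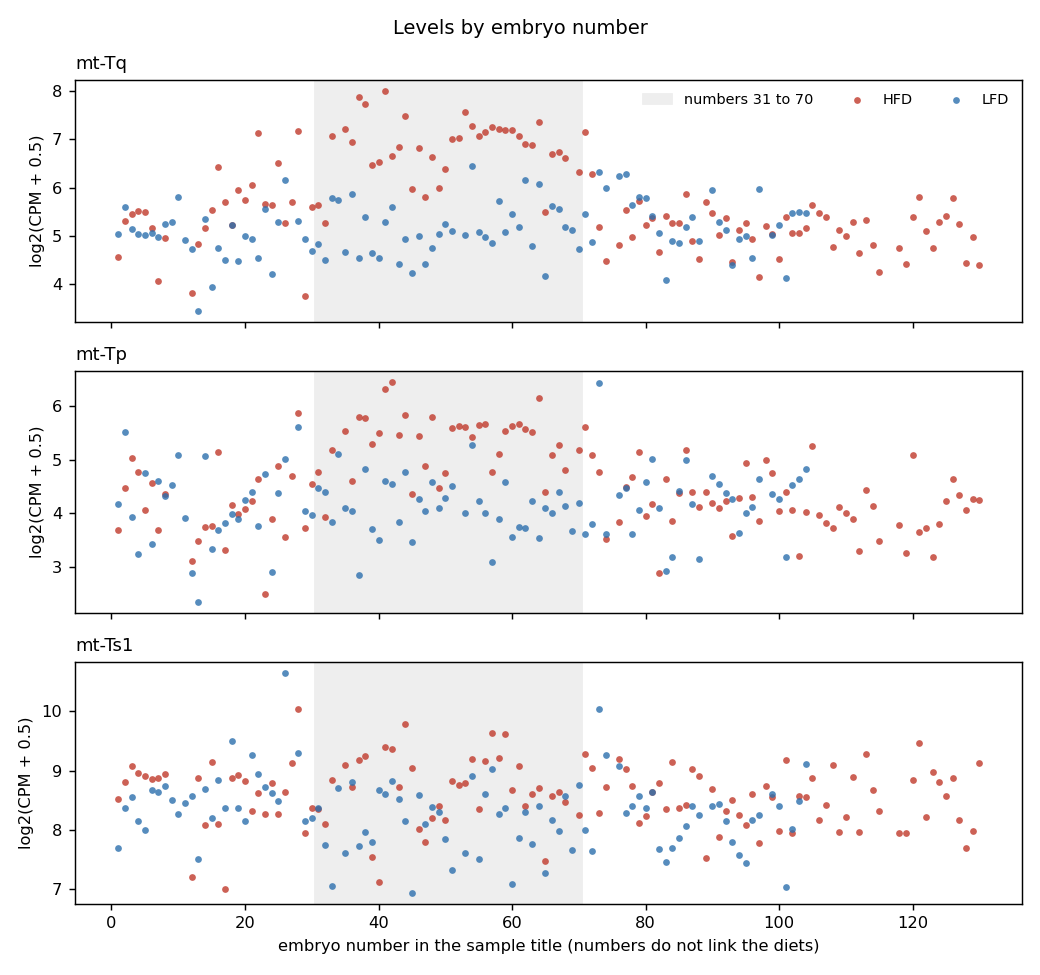
Level of mt-Tq, mt-Tp and mt-Ts1, as log2(CPM + 0.5), in each embryo by its number, HFD in red and LFD in blue, with numbers 31 to 70 shaded. In the shaded range the HFD means over 10 numbers lie above the LFD means by 1.41 to 1.89 for mt-Tq, 1.08 to 1.34 for mt-Tp and 0.39 to 0.95 for mt-Ts1, while single embryos of the diets overlap in all 3 genes.

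The calls were read again without this run. Its embryos were picked with earlier results known and include 30 of the 34 HFD embryos past the LFD maximum of mt-Tq. A smaller fold change of mt-Tq without them thus follows in part from that choice. The values without the run describe how far the calls rest on it and do not test it. Without the 38 HFD embryos numbered 31 to 70, none of the 5 tested members passed the threshold in edgeR, where 0.405% of genes were called higher; mt-Tq and mt-Ts1 had an unadjusted p under 0.05. The log2 fold change of mt-Tq was then 0.24 (SE 0.10, FDR 0.306) and that of mt-Tp 0.07 (SE 0.10, FDR 0.914). That of mt-Ts1 was nearly as large as before, at 0.27, with fewer embryos behind it (SE 0.09, FDR 0.13). mt-Ta stood at -0.02 (FDR 0.984) and mt-Te at 0.05 (FDR 0.971). Of the tested genes beside the members, mt-Tm (0.57, FDR 0.00236) and mt-Co1 (0.33, FDR 0.0128) were still called higher. mt-Ti, mt-Tt, mt-Tw, mt-Cytb and mt-Nd6 were not called. The mt-Tq to mt-Ti ratio differed by 0.02 (permutation p = 0.805) and the mt-Ta to mt-Tw ratio by -0.22 (p = 0.00479). The mt-Tq to mt-Tm ratio, added after the data were seen, averaged 2.13 for HFD and 2.46 for LFD embryos, a difference of -0.32. No p-value is given for it, because the embryos left out include 30 of the 34 past the LFD maximum of mt-Tq.

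The numbers do not link the diets, so setting the diets side by side within a range of numbers is a description and not a matched comparison. Within ranges that hold both diets, mt-Tq was higher in HFD embryos in 8 of 11, by 1.41 to 1.89 in the 4 ranges from 31 to 70 and by -0.34 to 0.78 in the other 7. mt-Tp was higher in 8 of 11, by 1.08 to 1.34 and by -0.24 to 0.29. mt-Ts1 was higher in 9 of 11, by 0.39 to 0.95 and by -0.29 to 0.54. HFD embryos 31 to 70 had a median of 17613 genes with a count, against 19309.5 in the other HFD embryos. Mitochondrial genes took a median of 6.21% of their counts against 5.29%, and the summed macrophage markers had medians of 6.25 and 6.26 log2 CPM. The part of these values in the result was not tested.

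Across embryos, 4 of the 5 tested members tracked a gene beside them on the other strand most closely. With each diet's mean taken out, the gene of highest Spearman correlation among all tested genes was mt-Co1 for mt-Ts1 (rho 0.93), mt-Tt for mt-Tp (0.87), mt-Tm for mt-Tq (0.84), mt-Tw for mt-Ta (0.64) and mt-Tp for mt-Te (0.58). The first 4 lie within 2 bases of the member or overlap it. All these values come from the same libraries, share their total counts and cannot be separated by strand, so they are descriptions. The next 2 genes were mt-Co3 and mt-Nd1 for mt-Ts1, mt-Tq and mt-Cytb for mt-Tp, mt-Tp and mt-Ti for mt-Tq, mt-Nd6 and mt-Atp6 for mt-Ta, and mt-Nd6 and mt-Tt for mt-Te. Every one of these 15 entries is a mitochondrial gene.

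The neighbour relations were alike in both diets for mt-Ts1 with mt-Co1 (rho 0.91 in HFD, 0.96 in LFD) and mt-Tp with mt-Tt (0.90 and 0.80). Among the members, mt-Tq and mt-Tp had rho 0.79 in HFD and 0.48 in LFD embryos, and 0.53 in HFD embryos outside 31 to 70. mt-Te and mt-Tp had 0.72 and 0.39. mt-Tq and mt-Ts1, the most abundant members, had 0.33 and 0.34. With mt-Nd6, the mRNA of the same strand, mt-Ts1 had 0.59 and 0.73 and mt-Tq 0.65 and 0.27. With the total count of the library the correlation of the members ran from -0.21 for mt-Tq to -0.05 for mt-Ta.

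**Figure D5:**
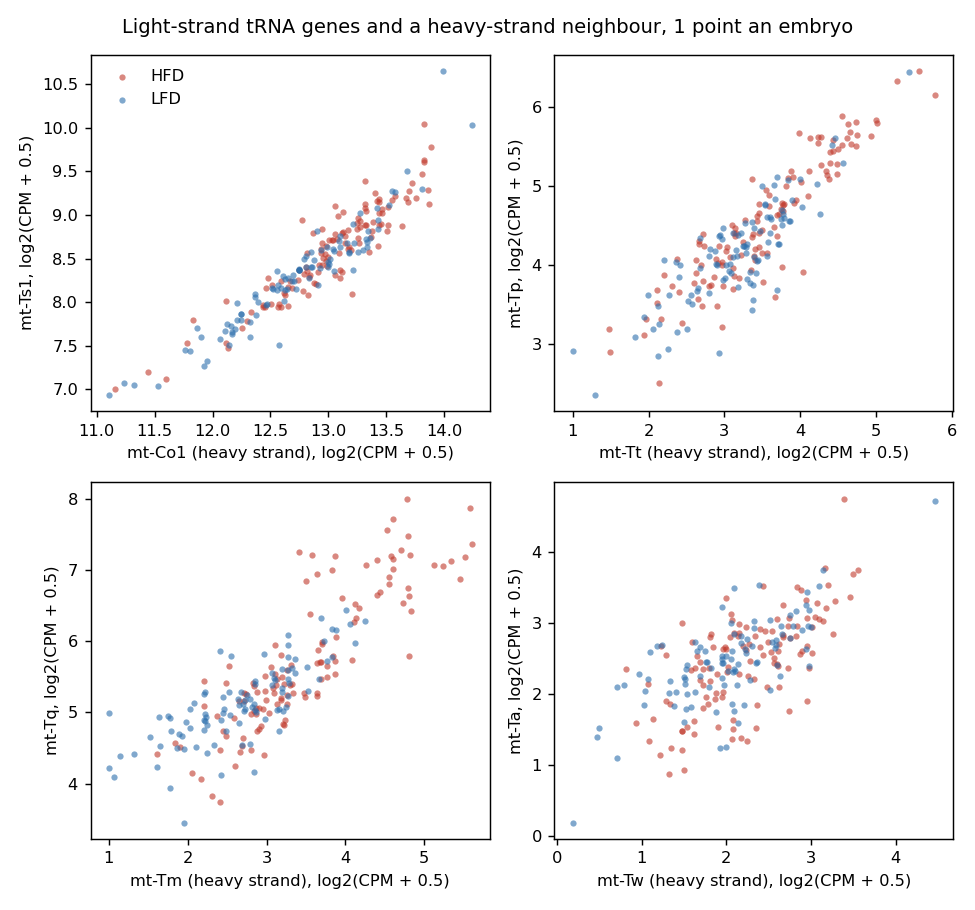
Level of 4 light-strand tRNA genes (vertical) against a heavy-strand gene beside each (horizontal), both as log2(CPM + 0.5), 1 point an embryo, HFD in red and LFD in blue. Points lie closest to a line for mt-Ts1 with mt-Co1 (rho 0.93) and spread most for mt-Ta with mt-Tw (rho 0.64).

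The nuclear genes that serve these tRNAs were read from 2 lists. Of 10 genes that charge them, 7 were tested and 0 were called by edgeR, and 0 had an unadjusted p under 0.05. The glutamyl-tRNA synthetase Ears2, which serves mt-Te and mt-Tq, stood at 0.08 on the log2 scale (SE 0.15, edgeR FDR 0.895). Gatb and Gatc, subunits of the amidotransferase that completes glutamine tRNA, had -0.12 and -0.14, and the serine enzyme Sars2 -0.06. Their median was -0.12, against 0.01 over all genes.

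Of 15 genes of mitochondrial RNA synthesis, processing and decay found in the table, all were tested and 1 was called, where 2.15% of all tested genes were called. Trnt1, which adds the CCA end to tRNAs, rose in HFD embryos by 0.19 (SE 0.06, edgeR FDR 0.037). Trmt10c, a subunit of the enzyme that cuts at the 5′ end of mitochondrial tRNAs, had 0.22 (SE 0.07, FDR 0.0541). Elac2, which cuts at the 3′ end, had -0.02 (SE 0.10, FDR 0.976), and the RNA polymerase Polrmt -0.21 (SE 0.11, FDR 0.408). The median of the list was -0.02.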

How the data were processed

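Single early 2-cell embryos had been sequenced by Smart-seq2 (paired reads of 150 bases after 16 cycles of amplification). Per the study's methods and processing notes, the authors trimmed reads with Trim Galore 0.6.6 and aligned them with STAR 2.7.10a to GRCm38 with the Staudach mitochondrial sequence in place of the reference one. The deposited raw counts came, per the file headers, from featureCounts 2.0.3 over exons of Ensembl release 102, strand setting 2, both ends aligned and each read counted. Coordinates are those of the count table; those of all 37 mitochondrial genes equal GENCODE vM21. Their match to the Staudach sequence was not checked.

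Embryos were grouped by the diet in the sample titles, as 122 HFD and 99 LFD, and all columns were used. CPM were taken over all counts of an embryo, with 0.5 added before the log. Reads carry no molecular identifiers, so PCR copies are counted as well. Genes were tested with edgeR 4.0.16 in R 4.3.3 (quasi-likelihood test, TMM, filterByExpr by diet, Benjamini-Hochberg over all genes, FDR under 0.05), after a check on simulated counts. The SE of an edgeR log2 fold change was taken as its absolute value divided by the square root of the F statistic. Ratios were compared by 100000 permutations and detection by Fisher's exact test. Alternatives used DESeq2 1.42.0 and limma 3.58.1. Figures and other steps used Python 3.11.15. The text names all 8 members, the genes beside each, mt-Nd6, the mitochondrial rRNA genes, genes of the lists, and the 3 genes most alike to each tested member. The members, lists and the run of numbers 31 to 70 were chosen with earlier results of these data known.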

Additional observations from a re-analysis of the deposited data

How the results depend on the processing

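Of the 5 tested members, mt-Tq was called in 13 of 14 alternative fits, mt-Ts1 in 11, mt-Tp in 11, mt-Ta in 1 and mt-Te in 0 (adjusted p from 0.116 to 0.971). Without HFD embryos 31 to 70, the number of members called went from 3 to 0 and that of all genes from 318 to 175. Over all genes the count was 7030 without a filter on low counts, 546 without embryos under 15000 genes, and 86 with number ranges within a diet as a random effect in limma-voom, an alternative added after the data were seen. In that fit mt-Tp had 0.39 and was not called (FDR 0.0762). Without the filter mt-Tn was called too, which made 4 members. Log2 fold changes changed sign against the mitochondrial mRNA genes for mt-Ta (-0.31), mt-Ts1 (-0.036) and mt-Te (-0.13), and without HFD embryos 31 to 70 for mt-Ta (-0.0196). The ratios that differed between the diets numbered 2, 1 with 0.1 CPM added, 1 without HFD embryos 31 to 70 and 3 with 1 CPM added. The mt-Tq ratio changed sign with mt-Tm in place of mt-Ti (-0.22, and -0.32 without HFD embryos 31 to 70), and the mt-Ts1 ratio, which was not called, without those embryos (-0.040) and against the mitochondrial mRNA genes (-0.051). The members whose detection differed numbered 0, and 1 after thinning. Of these changes the cause was not tested.

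The embryo numbers are shared by the diets but did not pair the embryos: over 94 shared numbers the correlation of same-numbered embryos had a median of 0.02, and 1 HFD embryo correlated best with its own number. With the number as a replicate block, 796 of 14439 genes were called, and mt-Tq, mt-Tp and mt-Ts1 remained the members called. Depth limits mt-Tn and mt-Tc, with 15 and 67 counts in all.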
